A study of Mus musculus with 6 samples.

Results

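A set of 10 genes of the endocardial cushions and heart valves were followed here in whole mouse hearts at E13.5 (embryonic day of development). They were taken by gene symbol from the 46983 genes in the count table, and all 10 were found there and were among the 17473 genes tested. Vcan, Hapln1 and Has2 make the hyaluronan-rich matrix, Lum, Dcn and Bgn encode small leucine-rich proteoglycans, and Sox9, Nfatc1, Scx and Tbx2 encode transcription factors. Hearts labelled TnnT2Cre;Wt1flox (n = 3, mutant replicates 1, 5 and 10) were compared with hearts labelled wild type (n = 3, wild type replicates 2, 3 and 5) to ask how loss of Wt1 in the cardiomyocyte lineage bears on the heart's gene expression. Per the study's methods, the mutants carried the cardiac troponin T Cre transgene together with homozygous floxed Wt1, and the controls carried the same floxed alleles without Cre. The labels give the strain of all 6 as C57BL/6 x DBA/2. Per the study, this Cre acts in cardiomyocytes and in part of the epicardium and of the mesenchymal cells derived from it. Wt1 is thus not targeted in the other cells of a mutant heart, such as those descended from endocardium. Each library came from 1 heart, measured by poly(A) RNA sequencing.

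The cushions are swellings of gelatinous matrix in the atrioventricular canal and outflow tract. Myocardium at these sites sends signals to the endocardium, some endocardial cells turn into mesenchyme and invade the matrix, and the cushions are then remodelled into thin leaflets with layers rich in proteoglycan, collagen and elastic fibre. Hyaluronan made by Has2 is bound by the large proteoglycan versican (Vcan), and the link protein Hapln1 stabilises their complex. Cushions and valves are a small share of a whole heart, and with bulk RNA fewer cells of a type and less RNA per cell cannot be told apart.

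The targeted gene and the make-up of the hearts were checked first. Wt1 had 40.0, 32.9 and 20.0 CPM in wild type replicates 2, 3 and 5 and 17.7, 33.3 and 35.7 CPM in mutant replicates 1, 5 and 10, where CPM is the count scaled to a common normalised library size. These groups overlapped (log2 fold change −0.10, standard error 0.31). The value sums all Wt1 exons over all cells and so does not check a deletion limited to 1 lineage. Depth lay between 44244665 and 56373393 counts a heart. The 14 cardiomyocyte markers summed to between 35600 and 39000 FPKM (fragments scaled to transcript length and library size), led by Actc1, and the 11 endocardial and endothelial markers to between 459 and 570 FPKM, led by Egfl7. Epicardial markers (led by Upk3b) summed to between 172 and 282 FPKM, and of the 11 listed, 4 had an unadjusted p under 0.05 with the mutants higher and 1, Tcf21, with the mutants lower (log2 fold change −1.10, adjusted p = 0.113 by edgeR). By DESeq2 2 of the 11 passed an adjusted p of 0.05, Krt8 and Tcf21. Over all tested genes, 3.14% had an unadjusted p under 0.05 with the mutants higher and 2.59% with the mutants lower. By DESeq2, 0.69% of the 19282 genes that it gave an adjusted p passed 0.05. Fibroblast and mural cell markers (led by Col3a1) summed to between 1460 and 2260 FPKM, and neural markers (led by Tubb3) to between 11.3 and 16.1 FPKM. Of the 11 fibroblast and mural markers, 2 had an unadjusted p under 0.05, both with the mutants higher. Of the 11 neural markers, 9 lay below 0, and 1 had such a p with the mutants higher and 1 with the mutants lower. By DESeq2, 2 of each list passed an adjusted p of 0.05. No listed marker was at 0 counts in every heart. A pair of hearts stood apart. The 10 red blood cell genes, led by Hbb-y, took 3.91% of counts in wild type replicate 5 and 4.04% in mutant replicate 10, against 1.25% to 1.73% in the other 4. In wild type replicate 5, counts also ran lower as genes grew longer (Spearman's rho across 11795 genes −0.556, against −0.0622 to 0.464 in the other hearts; genes are not independent replicates).

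Vcan and Hapln1 are neighbours on mouse chromosome 13 (GRCm38). Hapln1 lies on the forward strand at chr13:89539796-89611652 and Vcan on the reverse strand at chr13:89655312-89742509, so that their 3′ ends face each other across 43.7 kb. Of the 10 genes, Vcan, Hapln1 and Bgn matched the set of RefSeq promoters used. The 250 bases before the RefSeq start of each of them (GRCm38.p6) are shown for that reason. Capitals mark a GC box (GGGCGG, the site known for Sp1) or a CCAAT box (CCAAT), read on both strands, each written 5′ to 3′ on the strand of its gene:
Vcan, chr13:89742513-89742762, reverse strand: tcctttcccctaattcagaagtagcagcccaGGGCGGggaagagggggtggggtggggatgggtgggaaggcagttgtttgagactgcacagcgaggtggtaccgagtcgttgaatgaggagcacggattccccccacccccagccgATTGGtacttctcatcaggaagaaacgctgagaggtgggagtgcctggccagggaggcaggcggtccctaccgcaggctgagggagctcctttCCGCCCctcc
Hapln1, chr13:89540386-89540635, forward strand: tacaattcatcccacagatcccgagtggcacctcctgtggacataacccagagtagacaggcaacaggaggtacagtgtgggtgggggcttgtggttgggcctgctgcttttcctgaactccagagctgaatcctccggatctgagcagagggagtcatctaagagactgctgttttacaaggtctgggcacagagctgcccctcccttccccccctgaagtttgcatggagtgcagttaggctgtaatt
Bgn, chrX:73483351-73483600, forward strand: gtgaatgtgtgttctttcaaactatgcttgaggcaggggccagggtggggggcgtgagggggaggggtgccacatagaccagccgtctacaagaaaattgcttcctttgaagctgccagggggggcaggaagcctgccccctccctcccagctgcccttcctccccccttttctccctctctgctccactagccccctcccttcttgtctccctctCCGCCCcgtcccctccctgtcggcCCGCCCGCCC
Vcan held 2 GC boxes and 1 CCAAT box, Bgn held 3 GC boxes, of which the last pair overlap each other, and Hapln1 held neither. The Hapln1 window lies inside the gene span given above, as its RefSeq start is downstream of the annotated start at chr13:89539796. The bases before that annotated start were not read. Of 32536 RefSeq promoters of the same length, 33.0% held a GC box and 33.8% a CCAAT box. The G and C share was 62.4% in Vcan, 54.4% in Hapln1 and 64.4% in Bgn, against a median of 52.4% over all promoters. A TATA box (TATAAA, in 12.3% of promoters), a WT1 and EGR type site (GCGNGGGNG, in 10.6%) and a T-box site (TCACACC, in 3.33%) were not found in these 3 windows on either strand. A match here describes letters in a window, not binding.

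Per length, the matrix and proteoglycan genes were the most abundant and the transcription factors and the hyaluronan synthase the least. Mean FPKM over the 6 hearts was 118 ± 35.1 (SD) for Vcan, 101 ± 14.6 for Bgn, 54.8 ± 15.3 for Dcn, 49.6 ± 11.9 for Lum and 19.6 ± 4.84 for Hapln1. It was 9.89 ± 2.34 for Scx, 9.31 ± 2.14 for Nfatc1, 7.86 ± 2.46 for Tbx2, 6.87 ± 1.72 for Sox9 and 3.15 ± 0.898 for Has2. Vcan was at or above 94.4% of tested genes in FPKM and Has2 at or above 35.8%. Between neighbours in this order the ranges over hearts were separate only from Bgn to Dcn and from Lum to Hapln1. The other neighbours overlapped in range, and Scx lay above Nfatc1, and Tbx2 above Sox9, in only 3 of 6 hearts.

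**Figure D1:**
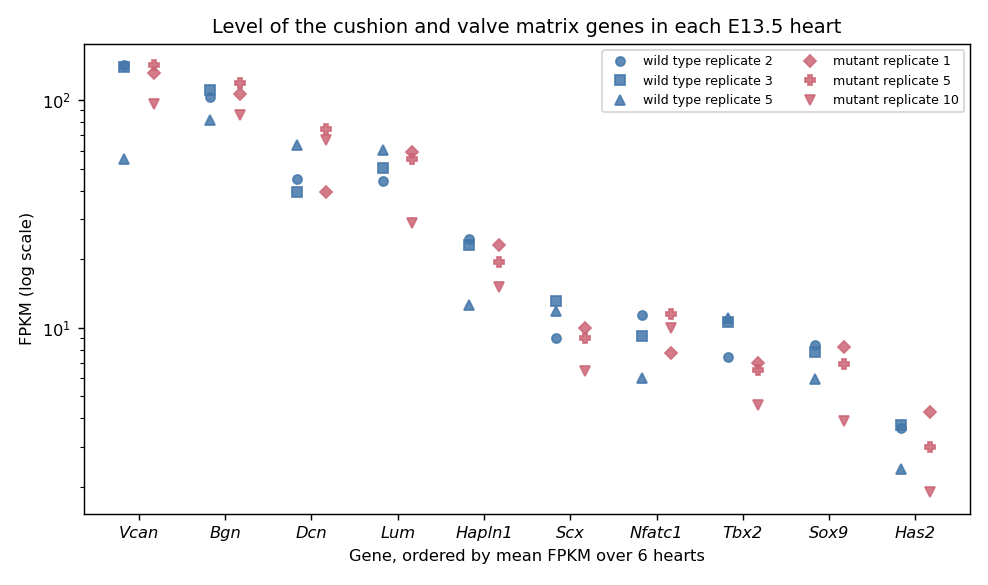
FPKM of each gene in each heart on a log scale, with genes ordered along the horizontal axis by their mean over 6 hearts, wild type hearts in blue and mutant hearts in red. Levels run from 142 FPKM for Vcan to 1.89 FPKM for Has2, and wild type replicate 5 sits apart from the other hearts for Vcan, at 55.3 FPKM.

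The order depends on the gene length used. The FPKM values rest on a length of 3885 bases for Vcan, 1462 for Bgn and 1840 for Dcn, where all annotated exons of GENCODE M21 together cover 14462, 6099 and 5838 bases. Per kilobase of those exon bases (an alternative chosen after seeing the data), Lum came first at 42.0 ± 10.1 (SD over 6 hearts), followed by Vcan at 31.6 ± 9.44, Bgn at 24.3 ± 3.49, Dcn at 17.3 ± 4.83 and Hapln1 at 16.8 ± 4.14, all in counts per kilobase at a common library size. The 5 matrix and proteoglycan genes stayed above the 4 transcription factors on this scale, and Has2 stayed last. The length that the values are divided by is the same in every heart. This choice does not enter the comparisons of 1 gene between hearts, apart from alternatives that used FPKM or a gene length correction. The trend with gene length and its correction used the FPKM lengths.

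Across the mutant and wild type hearts, Tbx2 was the only one of the 10 genes whose groups did not overlap, and it was lower in the mutants. No gene of the 10 passed an adjusted p of 0.05 by edgeR's quasi-likelihood test or by DESeq2. Over all genes the same rules called 0.0% of the 17473 tested with edgeR and 0.69% of the 19282 given an adjusted p by DESeq2. At an unadjusted p under 0.05 edgeR called 1 of the 10, against 5.73% of all tested genes, and lower in the mutants it again called 1, against 2.59%. Groups that did not overlap were likewise 1 of 10, against 11.2% of all tested genes, and 4.59% with the mutants lower. Of the 10 log2 fold changes, 4 were above 0 and 6 below, with a median of −0.06, against −0.001 for all tested genes. The spread within groups was wide, since the median standard deviation of log2 CPM was 0.40 over the 10 genes and 0.22 over all tested genes.

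Tbx2 encodes a T-box repressor that keeps the atrioventricular canal and outflow myocardium from taking on a chamber programme, and it is active in cushion mesenchyme too. It lies at chr11:85832551-85841948. Tbx2 had 26.6, 37.6 and 40.0 CPM in wild type replicates 2, 3 and 5 and 25.0, 23.6 and 17.6 CPM in mutant replicates 1, 5 and 10. Every mutant heart lay below every wild type heart, but wild type replicate 2 was only just above mutant replicate 1. The fold of mutant over wild type was 0.636, with a 95% interval of 0.47 to 0.859 (log2 fold change −0.65, standard error 0.19). The unadjusted p was 0.00839 and the adjusted p 0.638 by edgeR, and the adjusted p 0.137 by DESeq2. The exact permutation test over hearts gave 0.1, the smallest p that 3 against 3 allows. The value was below 0 with an unadjusted p under 0.05 in all 18 alternatives, from −0.81 to −0.41. The smaller end came without both hearts with more red blood cell RNA (2 against 2, chosen after seeing the data), where the unadjusted p was 0.0402. Tbx2 was not low in wild type replicate 5, where it had its highest level.

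The related repressor gene Tbx3, which shares the canal territory with Tbx2, had 18.3, 22.1 and 16.4 CPM in the wild type hearts and 15.3, 12.4 and 11.7 CPM in the mutants. Its groups did not overlap either, with a log2 fold change of −0.53 (standard error 0.16, unadjusted p = 0.00922, adjusted p = 0.646 by edgeR). Of the 33 other transcription factor genes described below, which include Tbx3, groups were apart for 3 with the mutants lower and 3 with the mutants higher. Over all tested genes, groups were apart in 4.59% with the mutants lower and in 11.2% either way. The ratio of Tbx2 to Tbx3 FPKM lay between 1.26 and 2.10 over the 6 hearts and overlapped between groups (exact permutation p = 0.7, two-sided).

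Scx, Sox9 and Nfatc1 had overlapping groups. Scx encodes scleraxis, a basic helix-loop-helix factor of tendon progenitors that also acts in valve remodelling. It had 9.04, 13.1 and 11.8 FPKM in wild type replicates 2, 3 and 5 and 9.97, 8.99 and 6.45 FPKM in mutant replicates 1, 5 and 10. Its lowest value was in mutant replicate 10, while mutant replicates 1 and 5 lay at the level of wild type replicate 2. The log2 fold change was −0.39 (95% interval −0.83 to 0.04, unadjusted p = 0.0694, adjusted p = 0.914 by edgeR), below 0 in all 18 alternatives. Scx lies at chr15:76457452-76459458 inside Bop1, which is on the opposite strand, and their annotated exons share no bases.

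Sox9, the factor that drives cartilage and valve progenitor matrix genes, had 34.2, 31.8 and 24.7 CPM in the wild type hearts and 33.4, 28.4 and 17.1 CPM in the mutants. The lowest heart of each group was the one with more red blood cell RNA. Its log2 fold change was −0.20 (95% interval −0.75 to 0.35), and 0.03 without mutant replicate 10. Sox9 is also made in cartilage and airway epithelium. The 9 cartilage markers in the table, led by Col2a1, summed to 143, 138 and 91.7 FPKM in the wild type hearts and 134, 116 and 87.6 FPKM in the mutants, low in the same 2 hearts as Sox9. The 10 foregut and airway markers, led by Epcam, summed to 9.41 FPKM in wild type replicate 5 and 8.94 FPKM in mutant replicate 5. In the other hearts they summed to between 0.473 and 2.93 FPKM. The part of either tissue in the Sox9 level was not tested.

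Nfatc1 encodes the calcineurin-responsive factor of valve endocardium. It had 52.1, 42.0 and 28.2 CPM in the wild type hearts and 35.3, 53.4 and 49.3 CPM in the mutants. The log2 fold change was 0.17 (95% interval −0.37 to 0.71), and −0.03 without wild type replicate 5, which had the lowest value of all. Mutant replicate 10 was not low for Nfatc1, unlike for the other 3 transcription factors.

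**Figure D2:**
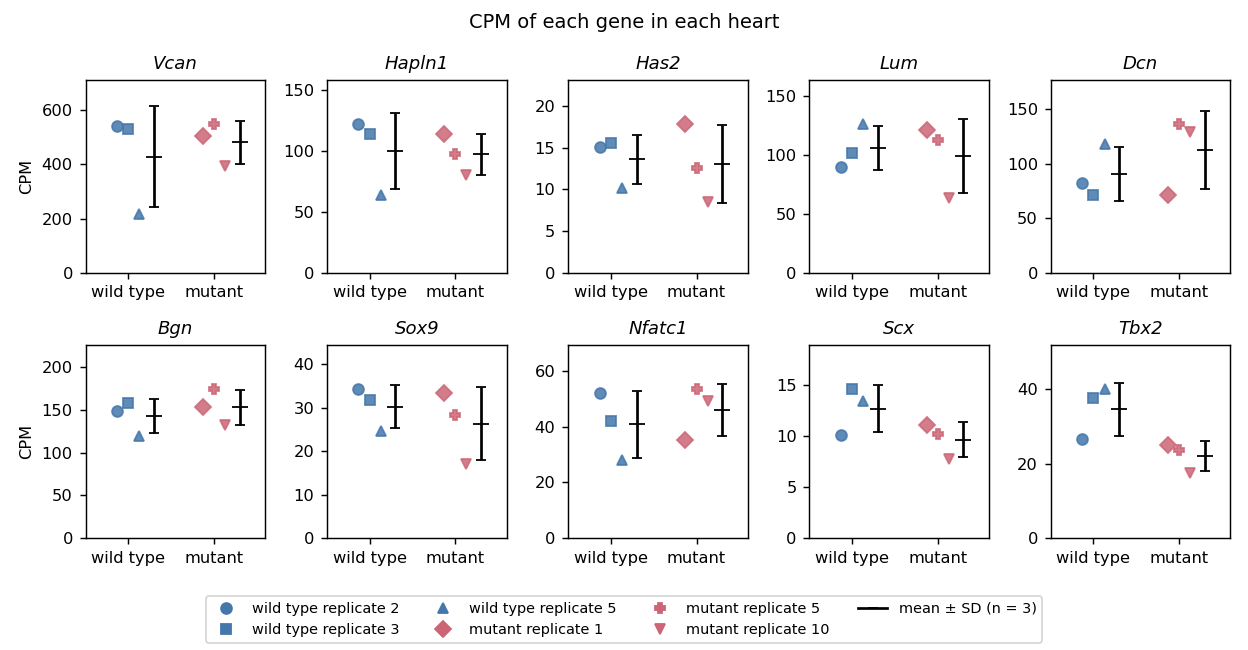
CPM of the 10 genes in each heart, with 1 panel and 1 linear axis from 0 for each gene, wild type hearts in blue and mutant hearts in red, and bars giving the mean ± SD of each group of 3. The groups are separate only for Tbx2, from 17.6 to 25.0 CPM in the mutants and from 26.6 to 40.0 CPM in the wild type hearts.

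The 3 genes of the hyaluronan matrix did not differ beyond the spread between hearts. Vcan had 542, 530 and 216 CPM in wild type replicates 2, 3 and 5 and 505, 548 and 395 CPM in mutant replicates 1, 5 and 10. The 4 at 505 CPM or more lay close together, while wild type replicate 5 was far below and mutant replicate 10 somewhat below. The fold was 1.12 with a 95% interval of 0.674 to 1.87, and the log2 fold change was 0.17 with all hearts but −0.15 without wild type replicate 5. Hapln1 had 122, 114 and 63.8 CPM in the wild type hearts and 114, 97.6 and 80.3 CPM in the mutants, with the same pair of hearts lowest. Its fold was 0.973, with a 95% interval of 0.664 to 1.43, and without wild type replicate 5 its log2 fold change was −0.28 (unadjusted p = 0.0653 by edgeR).

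Vcan FPKM varied 2.56-fold from the lowest to the highest heart and Hapln1 FPKM 1.95-fold, but the ratio of the pair varied 1.66-fold. Vcan over Hapln1 was 5.79, 6.04 and 4.40 in wild type replicates 2, 3 and 5 and 5.76, 7.30 and 6.39 in mutant replicates 1, 5 and 10. The groups overlapped (exact permutation p = 0.3, two-sided). The trend with gene length in wild type replicate 5 touches these long genes, and correcting it gave log2 fold changes of 0.14 for Vcan and −0.09 for Hapln1.

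Has2, the main hyaluronan synthase of the cushions, had 15.1, 15.6 and 10.2 CPM in the wild type hearts and 17.8, 12.6 and 8.45 CPM in the mutants. The mutants spanned the whole wild type range, with mutant replicate 1 highest and mutant replicate 10 lowest of the 6. The fold was 0.95 (95% interval 0.615 to 1.47). The antisense gene Has2os covers 4.3% of the Has2 exon bases at chr15:56665627-56694539, and as the strand setting of the counting is not given in the sources used here, reads there cannot be assigned to 1 strand.

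The small leucine-rich proteoglycans bind and space collagen fibrils. Dcn and Lum stand on chromosome 10, 47.0 kb apart and in the same direction (Dcn at chr10:97479609-97518143, Lum at chr10:97565128-97572703), and lay on the same side of their own means in wild type replicates 2 and 5 and mutant replicate 5 and on opposite sides in the other 3 hearts. Dcn (decorin) had 81.9, 71.0 and 118 CPM in wild type replicates 2, 3 and 5 and 71.4, 136 and 129 CPM in mutant replicates 1, 5 and 10. Each group held low and high hearts. Its fold was 1.25, with a 95% interval of 0.811 to 1.91 (log2 fold change 0.32, unadjusted p = 0.272 by edgeR). The size of the log2 fold change depended on single hearts, as it was 0.56 without wild type replicate 5 (unadjusted p = 0.0461 by edgeR). With any 1 heart left out it lay between 0.14 and 0.56 and so stayed above 0.

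Lum (lumican) had 89.8, 102 and 126 CPM in the wild type hearts and 121, 113 and 63.1 CPM in the mutants. It was highest in wild type replicate 5 and lowest in mutant replicate 10, the pair of hearts with more red blood cell RNA. Its fold was 0.936, with a 95% interval of 0.637 to 1.38. Without both of those hearts the log2 fold change turned from −0.10 to 0.29 (unadjusted p = 0.0176, 2 against 2). The ratio of Dcn to Lum FPKM was 1.03, 0.787 and 1.05 in the wild type hearts and 0.664, 1.36 and 2.31 in the mutants, a 3.48-fold range (exact permutation p = 0.5, two-sided). Farther along the same chromosome, Epyc had between 0.55 and 1.61 CPM, and Kera, between Lum and Epyc, had between 0.0 and 0.204 CPM and was not tested.

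Bgn (biglycan) was the steadiest of the 10 genes, with a 1.46-fold range of FPKM over all hearts. It had 149, 158 and 120 CPM in the wild type hearts and 153, 174 and 132 CPM in the mutants. The fold was 1.07, with a 95% interval of 0.852 to 1.35. Bgn is X-linked, and Xist was at 298.9 CPM or more in wild type replicate 2 and mutant replicates 5 and 10 and at 0.209 CPM or less in the other 3 hearts, so both sexes were in each group.

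**Figure D3:**
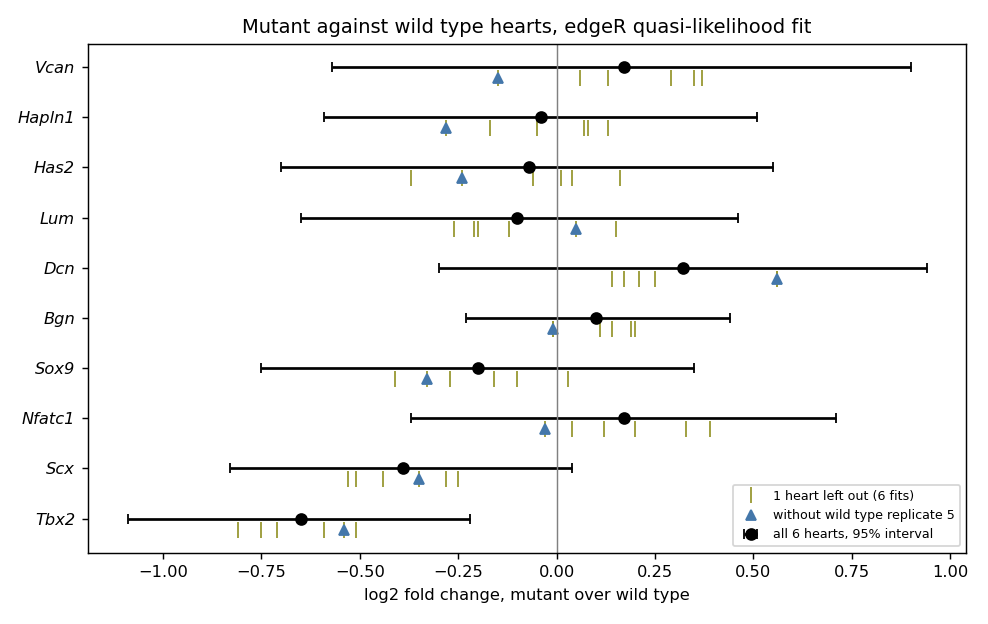
log2 fold change of mutant over wild type for each gene with all 6 hearts (black points, with 95% intervals as bars), with 1 heart left out (ticks) and without wild type replicate 5 (blue triangles). Tbx2 is the only gene whose interval, −1.09 to −0.22, does not cross 0, and Vcan, Bgn, Nfatc1 and Lum change sign without wild type replicate 5.

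Heart to heart, the 10 genes varied in a way that crossed the labels. Wild type replicate 5 was the lowest wild type heart in 6 of the 10 genes (Vcan, Hapln1, Has2, Sox9, Nfatc1 and Bgn) but the highest of all hearts for Tbx2 and Lum. Mutant replicate 10 was the lowest mutant heart in 8 of the 10, all but Nfatc1 and Dcn, and the lowest of all hearts for Has2, Sox9, Scx, Tbx2 and Lum. Both hearts were low together for Vcan, Hapln1, Has2, Sox9 and Bgn, and both were high for Dcn. The median of the 10 genes relative to their means over hearts was −0.22 (log2) in wild type replicate 5 and −0.38 in mutant replicate 10, against 0.11 to 0.23 in the other 4. The red blood cell share of counts was above the others in these 2 hearts, and its part in the levels was not tested. Leaving out both gave a median log2 fold change over the 10 genes of −0.06, as with all 6 hearts. Leaving out any 1 heart gave −0.21 to 0.14, so the sign of the median depended on the heart left out. It was −0.20 without wild type replicate 5 alone and 0.14 without mutant replicate 10 alone.

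**Figure D4:**
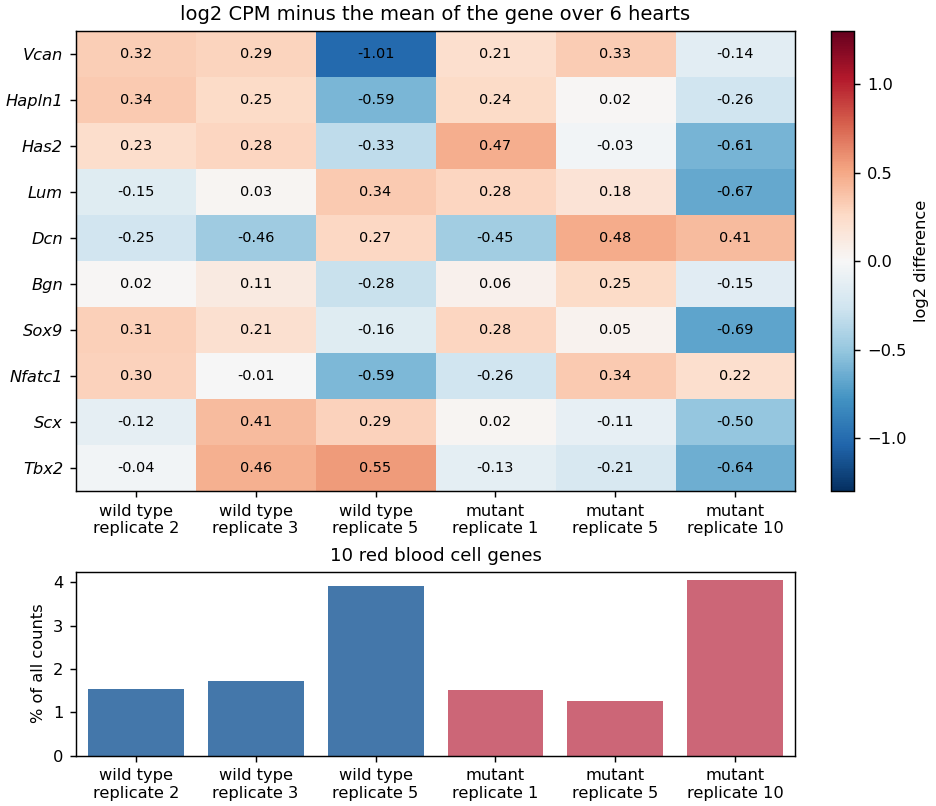
Upper panel, log2 CPM of each gene in each heart minus the mean of that gene over 6 hearts (blue low, red high). Lower panel, share of all counts in 10 red blood cell genes, which reaches 3.91% and 4.04% in wild type replicate 5 and mutant replicate 10, the hearts where Vcan, Hapln1, Has2, Sox9 and Bgn are all below their mean.

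Around these 10 genes, 5 lists of other cushion and valve genes were described in the same way. Of 130 tested genes, 12 had an unadjusted p under 0.05 with the mutants higher and 4 with the mutants lower, against 3.14% and 2.59% of all tested genes. None passed an adjusted p of 0.05 by edgeR (16 unadjusted, either way, against 5.73% of all tested genes). By DESeq2, 2 did, against 0.69% of the genes that it gave an adjusted p. Over all 17473 tested genes, 8699 log2 fold changes lay above 0 and 8774 below. These lists, like the 10 genes, were written with earlier results known. Of 9 macrophage markers, 8 had an unadjusted p under 0.05 and were higher in the mutants, whose summed levels of 77.7 to 84.1 FPKM did not overlap the 45.2 to 57.7 FPKM of the wild type hearts. Over all tested genes that share was 3.14%. Their leading gene was C1qb, and their part in the values below was not tested.

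Among 21 tested genes of hyaluronan turnover and the lectican matrix, 14 lay above 0 and 7 below, with a median of 0.16, and of −0.02 without wild type replicate 5. Hapln4, a link protein of the family of Hapln1, had 1.40, 0.748 and 0.863 CPM in the wild type hearts and 0.154, 0.21 and 0.278 CPM in the mutants. Its groups did not overlap (log2 fold change −2.22, standard error 0.42), and its adjusted p was 0.273 by edgeR and 0.00503 by DESeq2. Hapln4 is among genes the study itself tabulated from these hearts, so its place here is not independent evidence. Cemip, which takes part in breaking down hyaluronan, had 18.8, 13.8 and 9.0 CPM in the wild type hearts and 22.6, 25.0 and 28.8 CPM in the mutants, again without overlap (log2 fold change 0.88, unadjusted p = 0.00669, adjusted p = 0.58 by edgeR). The aggrecan gene Acan (0.95, overlapping groups) and the versican-cleaving protease gene Adamts20 (0.56) were the other 2 with an unadjusted p under 0.05. Both were above 0 and at less than 5 CPM in every heart. Acan is also among the cartilage markers. In this list 4 of 21 were called at that threshold, against 5.73% of all tested genes.

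Among 12 other small leucine-rich proteoglycans tested, 5 lay above 0 and 7 below, and the median moved from −0.01 to 0.27 without wild type replicate 5. Ecm2 was the only 1 of the 12 with an unadjusted p under 0.05, against 5.73% of all tested genes. Its log2 fold change was 0.48 (standard error 0.19), at 4.92 to 6.38 CPM in the wild type hearts and 6.71 to 9.84 CPM in the mutants.

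Among 27 tested genes of the fibrous matrix, 19 lay above 0 and 8 below, with a median of 0.24, and of 0.06 without wild type replicate 5. The collagen I chains led. Col1a1 had 643, 695 and 367 CPM in the wild type hearts and 746, 1270 and 1280 CPM in the mutants, and Col1a2 had 603, 650 and 407 CPM against 656, 1110 and 1050 CPM. Their log2 fold changes were 0.95 and 0.76, with adjusted p of 0.652 and 0.688 by edgeR and 0.0498 and 0.122 by DESeq2. Mutant replicate 1 lay near the wild type hearts for both chains, as it did for Dcn. Col1a1 too is in the study's own table. The matricellular gene Thbs1 (0.63) and the elastic fibre gene Fbln5 (0.51) also had an unadjusted p under 0.05. That made 4 of 27, all above 0, against 3.14% of all tested genes with the mutants higher.

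Among 33 other transcription factor genes tested, 13 lay above 0 and 20 below, with a median of −0.11. An unadjusted p under 0.05 was found for 4, with 1 above 0 and 3 below, against 3.14% and 2.59% of all tested genes. Beside Tbx3, the genes with an unadjusted p under 0.05 were Snai1, which drives the turn of endocardium into mesenchyme (log2 fold change −0.56, with 10.6 to 13.3 CPM in the wild type hearts and 5.48 to 9.50 CPM in the mutants), the Notch target Hey1 (−0.45, overlapping groups) and Nfatc2 (0.47). Without wild type replicate 5 the unadjusted p of Snai1 was 0.0661. Nfatc2, of the family of Nfatc1, had 14.6 to 20.1 CPM in the wild type hearts and 22.2 to 27.9 CPM in the mutants.

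Among 37 tested signalling genes, 24 lay above 0 and 13 below, with a median of 0.11. An unadjusted p under 0.05 was found for 3, all above 0, against 3.14% of all tested genes with the mutants higher: the TGFβ receptor gene Tgfbr2 (0.35), and Nrg1 (0.60) and Hbegf (0.31), which encode ligands of the EGF family that endocardial cells use in trabecular and valve growth. Nrg1 had 2.11 to 3.20 CPM in the wild type hearts and 4.04 to 4.45 CPM in the mutants.

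**Figure D5:**
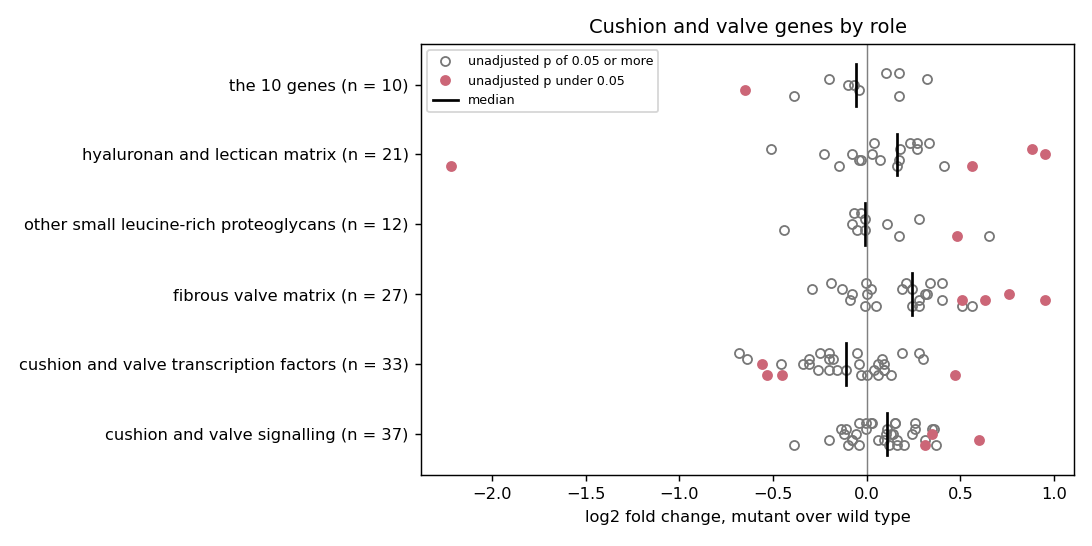
log2 fold change of mutant over wild type for each tested gene of the 10 and of the 5 other lists, with filled points where the unadjusted edgeR p was under 0.05 and black bars at the list medians. Tbx2 is the filled point of the 10, and medians run from −0.11 in the transcription factors to 0.24 in the fibrous matrix. No point passes an adjusted p of 0.05 by edgeR, while Hapln4 and Col1a1 pass it by DESeq2.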

How the data were processed

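RNA from 6 whole hearts (TruSeq RNA, paired-end reads) was processed by the authors with Trim Galore, STAR (mm10) and featureCounts with GENCODE M19, per the study's methods, while the submitters' processing notes name HTSeq and DESeq2, so the counting tool is uncertain. The authors deposited whole-number counts per gene and FPKM values, and how FPKM was made is not given in the sources used here. The deposited FPKM fitted counts divided by total counts and 1 length per gene. Annotation for positions was GENCODE M21.

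Counts were normalised by TMM, filtered by filterByExpr (minimum count 10) and tested with edgeR 4.0.16 in R 4.3.3 (quasi-likelihood test, two-sided, Benjamini-Hochberg over 17473 genes, group as the one term). Intervals (95%) came from the t distribution of that fit. Alternatives, listed with their effects in the closing section, included DESeq2 1.42.0 and limma 3.58.1. Fits were tested on simulated data. Permutation tests were exact. Intervals reflect the spread between hearts sequenced to 44244665 counts or more. Nothing in the labels says whether hearts shared a litter or day. No pair of hearts of the same group agreed within sampling noise (chi-square over degrees of freedom of at least 27.8).

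The 10 genes, the other lists and the marker lists were chosen with earlier results of these data known. Named beside the 10 were Wt1, list genes with an unadjusted p under 0.05, the leading marker of each list that bore on a result, and family neighbours. The GC, CCAAT and TATA box motifs were added after the promoter sequences were seen. The authors' group means of FPKM and copies of both tables without gene names were not used.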

Additional observations from a re-analysis of the deposited data

How the results depend on the processing

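Counts of genes past the threshold, list medians and the log2 fold changes of the 10 genes were recomputed under 18 alternatives, plus an adjusted p under 0.1 for the counts: DESeq2, limma-voom, limma on log2(FPKM + 1) and log2(FPKM + 0.1), RLE scaling, no filter or a minimum of 1 CPM in 3 hearts, robust dispersion, an Xist covariate, a gene length correction with all hearts and without wild type replicate 5, each heart left out, and, chosen after seeing the data, 4 hearts (wild type replicate 5 and mutant replicate 10 left out). None of the 10 genes passed an adjusted p of 0.05 in any of them, and Tbx2, Scx and Dcn kept their direction in all 18.

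Over all genes, the count past the threshold went from 0 to 133 with DESeq2, 34 with no filter on low counts, 6 with the gene length correction, 41 with that correction and without wild type replicate 5, 9 with 4 hearts and 6 at an adjusted p under 0.1. Leaving out 1 heart gave 0 to 44, with 44 without wild type replicate 5. The other settings gave 0.

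Some signs turned. Without wild type replicate 5 but with the gene length correction, Vcan was −0.12, Lum 0.05 and Bgn −0.02. With 4 hearts, Vcan was −0.03, Nfatc1 −0.09 and Lum 0.29. With the Xist covariate, Nfatc1 was −0.01 and Lum 0.03, and limma-voom gave 0.01 for Hapln1. With 1 heart left out, values ran from −0.15 to 0.37 for Vcan, −0.28 to 0.13 for Hapln1, −0.37 to 0.16 for Has2, −0.41 to 0.03 for Sox9, −0.03 to 0.39 for Nfatc1, −0.26 to 0.15 for Lum and −0.01 to 0.20 for Bgn. The cause of these turns was not tested.

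No paired analysis was possible because nothing in the labels pairs a mutant heart with a wild type heart. Ratios, marker sums and deviations of single hearts were not recomputed, and mean levels were recomputed only with another gene length.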
